A study of Mus musculus with 16 samples.

Results

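3T3-L1 is a mouse fibroblast line that is committed to the fat lineage and becomes adipocytes after treatment with MDI, a mixture of isobutylmethylxanthine, dexamethasone and insulin. The regions described here are distal enhancer candidates that gained H3K27ac during the first 48 h of differentiation in empty-vector cells, started without H3K4me1, and carried the acetylation at 48 h also in cells that overexpress SETD5. They were chosen from the 31292 enriched regions, called islands, that the replicate A library of empty-vector cells held for H3K27ac at 48 h. A region was kept where it overlapped, by at least 1 bp, an island of the replicate B library and of both 48 h libraries of SETD5 cells, no island of either 0 h library of empty-vector cells, no 0 h H3K4me1 island, and no promoter, taken as the 1000 bp before and the first 100 bp after a transcript start. This rule gave 2226 regions, 7.11% of the list and 11.2% of its 19960 distal islands. They are called de novo kept enhancers below.

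Empty-vector cells and SETD5 cells were both 3T3-L1 preadipocytes transduced with a retrovirus, the first with an empty virus and the second with a virus for V5-tagged SETD5. The SETD5 line is a stably transduced population in which a weak viral promoter drives moderate overexpression, as the study judged it from Setd5 mRNA. H3K27ac was profiled by ChIP-seq in both at 0 h (day 0, confluent cells before MDI) and 48 h (day 2 of MDI), with replicates A and B, and SETD5-V5 was profiled with an antibody to the tag at 0 h and 6 h of MDI, with replicates A and B. H3K4me1 (0 h and 48 h) and endogenous SETD5 (0 h and 6 h) had 1 library per time, so differences in them have no replicate check. The H3K4me1 libraries carry the label of the SETD5-V5 virus, although their titles name no virus and the paper mentions no transduction for them. They were read here as untransduced cells. If the label is right, both H3K4me1 lists, also the 0 h list that the rule used, come from SETD5 cells. The SETD5-V5 libraries of replicate A carry no virus label although their titles name SETD5-V5. The study calls A and B biological replicates, and the labels do not say whether they came from separate transductions.

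H3K27ac marks active enhancers and promoters, and H3K4me1 marks enhancers that are either active or primed for later use. Enhancers that become active without earlier H3K4me1 are called de novo or latent enhancers, and signal-dependent factors that open closed chromatin are known to act at them. In 3T3-L1 cells C/EBPβ and C/EBPδ are induced within hours of MDI, dexamethasone activates the glucocorticoid receptor, and isobutylmethylxanthine raises cAMP. SETD5 is a SET-domain protein that works with the NCoR and HDAC3 co-repressor complex.

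Sequences of 8 regions are shown to make the binding elements visible. They come from the highest-scoring de novo kept enhancers within 50 kb of a transcript start of a listed gene whose central 600 bp hold a match to the C/EBP consensus TTGCNNAA or to the glucocorticoid receptor (GR) element GNACANNNTGTNC, on either strand. Each is 120 bases of the mm9 plus strand, with the matches in capitals, and the distance is that of the region's centre from the nearest start of the gene, negative for upstream.
Lpl -31.3 kb, chr8:71372915-71373034: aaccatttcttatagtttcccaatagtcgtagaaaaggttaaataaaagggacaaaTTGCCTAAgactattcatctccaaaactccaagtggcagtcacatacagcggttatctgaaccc
Zbtb16 48.4 kb, chr9:48595761-48595880: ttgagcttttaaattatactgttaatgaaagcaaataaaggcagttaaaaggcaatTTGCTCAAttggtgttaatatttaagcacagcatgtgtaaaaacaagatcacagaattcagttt
Pik3r1 -44.0 kb, chr13:102582044-102582163: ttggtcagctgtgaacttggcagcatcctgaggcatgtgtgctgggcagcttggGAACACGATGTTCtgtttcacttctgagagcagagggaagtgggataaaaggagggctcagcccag
Pex11a -15.5 kb, chr7:86903528-86903647: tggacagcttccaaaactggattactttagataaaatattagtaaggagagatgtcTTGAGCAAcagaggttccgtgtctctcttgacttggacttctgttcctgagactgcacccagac
Cebpa 37.9 kb, chr7:35942188-35942307: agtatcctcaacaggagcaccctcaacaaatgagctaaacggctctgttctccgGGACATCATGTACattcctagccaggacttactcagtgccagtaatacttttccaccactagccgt
Socs2 31.8 kb, chr10:94823981-94824100: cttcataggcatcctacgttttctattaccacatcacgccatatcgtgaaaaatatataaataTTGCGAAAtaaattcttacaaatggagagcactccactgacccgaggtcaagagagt
Pde4b -24.3 kb, chr4:102218446-102218565: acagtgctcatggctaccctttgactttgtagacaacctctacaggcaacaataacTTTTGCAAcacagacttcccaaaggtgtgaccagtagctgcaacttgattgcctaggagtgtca
Bcl6 -6.8 kb, chr16:23979049-23979168: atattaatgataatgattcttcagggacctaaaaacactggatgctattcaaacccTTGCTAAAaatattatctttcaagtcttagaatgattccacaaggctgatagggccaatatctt
The region of Lpl, which encodes lipoprotein lipase, and those of Zbtb16, a zinc-finger repressor induced by glucocorticoids, Pex11a, a peroxisome division factor, Socs2, an inhibitor of cytokine signalling, Pde4b, a cAMP phosphodiesterase, and Bcl6, a transcriptional repressor, hold C/EBP matches in the stretch shown. The region of Pik3r1, the regulatory subunit of phosphoinositide 3-kinase, and that of Cebpa, the late adipogenic factor C/EBPα, hold GR elements there. A match is a description of the letters, and binding of these factors was not measured in these libraries.

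The values that chose the regions are the island calls themselves. Of the 31292 islands, 28364 were also in the replicate B list, 6517 of these had no 0 h H3K27ac island in empty-vector cells, 5761 of these were distal, and 3625 of the latter had no 0 h H3K4me1 island. Both SETD5 lists held 61.4% of the 3625, 1 list held 11.4%, and neither held 27.2% (985 islands, called de novo absent below). Of the 2136 distal induced islands that did carry 0 h H3K4me1, both SETD5 lists held 1501, or 70.3% (called primed kept below). Regions close to the limits were few. The smallest overlap with a SETD5 48 h island was 200 bp, 1 window of the caller, and 9 regions had an overlap that small. Just outside the rule, 13 of the 1501 primed kept islands met 0 h H3K4me1 over no more than 200 bp, and 10 of 1845 islands excluded by 0 h H3K27ac alone met it over no more than 200 bp. The nearest promoter was 10 bp away, and 8 regions lay within 200 bp of one. The median distance to a 0 h H3K27ac island was 12800 bp and that to a 0 h H3K4me1 island 13400 bp, with 109 and 99 regions within 1000 bp.

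The 4 libraries of 48 h H3K27ac describe how large and how strong these regions were, with no test since the rule used them. In the replicate A list the regions ranged from 200 to 27200 bp, with a median of 2600 bp. The median length of the islands at these regions was 2600 bp in replicate B of empty-vector cells, 2200 bp in replicate A and 2400 bp in replicate B of SETD5 cells. Both SETD5 islands were shorter than both empty-vector islands at 767 regions (34.5%), both were longer at 321 (14.4%), and the lengths overlapped between vectors at 1138 (51.1%). Of 9950 distal islands that already had H3K27ac in both 0 h libraries of empty-vector cells and had it in all 4 libraries at 48 h, 26.3% were shorter and 18.6% longer in this sense. The median ratio of SETD5 to empty-vector length was 0.813 within replicate A and 0.941 within replicate B. Islands were shorter with SETD5 over the whole 48 h lists as well. Their median length was 2800 bp (A) and 2400 bp (B) with the empty vector and 2000 bp and 2200 bp with SETD5. When the regions were chosen and measured in the replicate B lists alone (3585 regions), the median ratio was 1, and in the replicate A lists alone (2862 regions) it was 0.8. Most of the regions ranked low in the list they came from. The median region had 63.1% of the replicate A islands of empty-vector cells above it in score, which is the caller's own value for an island, and 1532 regions (68.8%) lay below the list's median score. The corresponding medians were 55.2% in replicate B of empty-vector cells and 54.2% and 51.5% in the SETD5 lists.

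The 12 highest-scoring regions were shorter, with 1 exception, in both SETD5 libraries than in both empty-vector libraries. All 12 lacked SETD5-V5 at 0 h, as did 93.4% of all de novo kept regions. The 12 were picked by their score in replicate A of empty-vector cells, a choice that favours long islands there. Their shortening is therefore a description and no evidence of an effect. The highest-scoring region lies at chr9:31446801-31469400, intergenic and 186 kb from the start of Tmem45b, the nearest protein-coding gene. Its H3K27ac islands measured 22600 bp (A) and 21600 bp (B) in empty-vector cells and 11000 bp and 11200 bp in SETD5 cells. In the empty-vector lists 1.63% and 1.03% of islands scored higher, and in the SETD5 lists 27.9% and 29.4%. So this region was ranked far lower in SETD5 cells, although it was present in all 4 libraries. A second region on chromosome 9 (chr9:116258601-116268200), 179 kb from Tgfbr2, the type II receptor of TGFβ, kept its rank more closely, with 2.11% and 1.66% of islands above it in empty-vector cells and 4.92% and 4.41% in SETD5 cells. The third lies at chr3:67346401-67373600, 26.7 kb from Mfsd1, and was 27200 bp and 23200 bp long in empty-vector cells but 5200 bp and 6600 bp long in SETD5 cells.

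The next regions varied in how far they shortened. Near Gm4955 (chr1:175434801-175447000) the empty-vector islands spanned 12200 and 12600 bp, little more than the 11400 and 11800 bp of the SETD5 lists. By contrast, the region 31.3 kb from Col6a3, a collagen VI chain, was 8400 bp and 5600 bp long in empty-vector cells and 1800 bp and 2800 bp in SETD5 cells. The region of chr9:48563401-48588600 lies in an intron 68.0 kb from the start of Zbtb16 and was 25200 bp and 73000 bp long in empty-vector cells. In SETD5 cells it was 15400 bp and 27600 bp long, so that the vectors overlapped, and this was the exception. The others lie nearest to Ints10 (and Lpl), Cd200, Fam110c, D630036H23Rik, Tnfsf11 and Klf6. The last of these, at chr13:5559201-5571000, is 296 kb from its nearest gene and was 11800 bp and 8600 bp long in empty-vector cells against 3000 bp and 4200 bp in SETD5 cells. H3K4me1 was present at 48 h at 11 of the 12, against 52.3% of all de novo kept regions. SETD5-V5 at 6 h was present in both replicates at 5, in 1 replicate at 4 and in neither at 3. Over all de novo kept regions these shares were 39.5%, 19.05% and 41.4%.

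SETD5-V5 was not used by the rule and appeared at many of these regions after induction. At 0 h a SETD5-V5 island overlapped 6.02% of them in replicate A and 2.02% in replicate B. At 6 h it overlapped 55.4% in replicate A and 42.7% in replicate B. Both 6 h libraries were thus above both 0 h libraries, with means of 4.02% ± 2.83 and 49.1% ± 9.02 (SD, n = 2 libraries each). The difference of 45.0 percentage points had p = 0.333 in the exact two-sided permutation test over the 4 libraries, which is the smallest p that this design allows. Over all distal islands of the same list, the background was 29.7% and 12.9% before MDI, and 68% and 55.3% after 6 h. In the de novo kept regions the 6 h share was 9.21 times the 0 h share in replicate A and 21.1 times in replicate B, against 2.29 and 4.302 times over all distal islands. These ratios were 6.73 and 14.1 for de novo absent and 3.81 and 8.42 for primed kept islands. A ratio rises where the 0 h share is small. In percentage points, the difference of the means was 54.2 for primed kept islands, 18.2 for de novo absent islands and 40.4 over all distal islands. The gain of 45.0 points was thus not particular to the de novo kept regions. At 6 h the shares of the de novo kept regions were below the background in both libraries, and the rule had left out the islands with H3K27ac or H3K4me1 at 0 h. The SETD5-V5 lists differ in size, with 16054 (A) and 6666 (B) islands at 0 h and 35573 and 27220 at 6 h. With every list held to the number of islands in the smallest list of its mark, highest scores first (6666 for SETD5-V5), 1887 regions met the rule, the difference was 12.1 percentage points and the 6 h mean 14.5%.

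**Figure D1:**
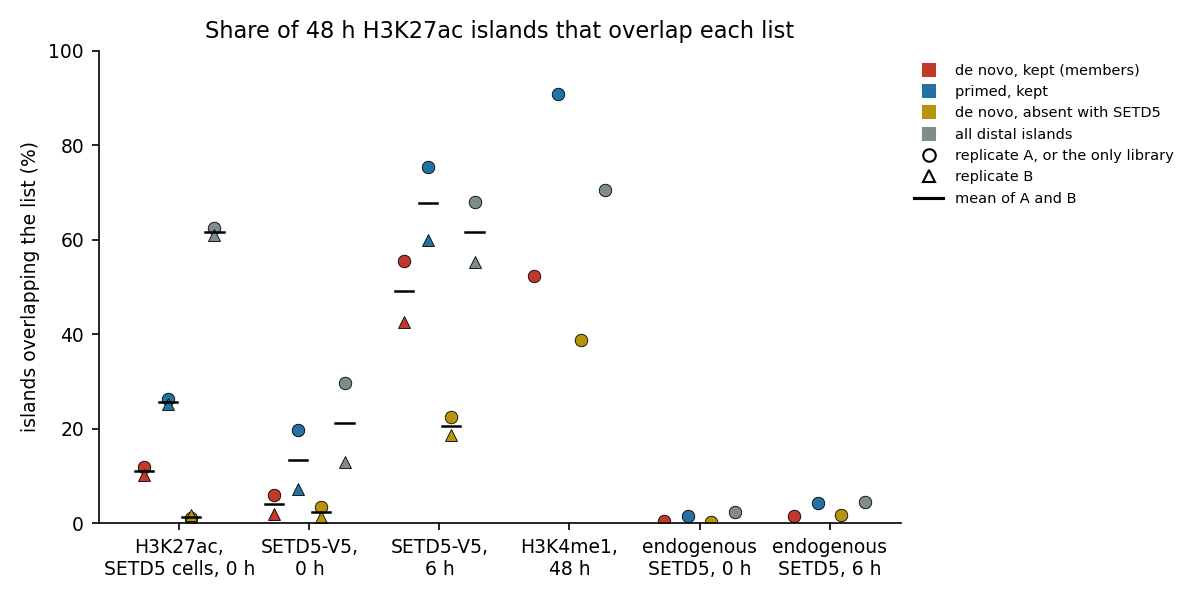
Share of islands (%) that overlap each list the rule did not use, for the 2226 de novo kept regions, 1501 primed kept, 985 de novo absent and 19960 distal islands. Circles are replicate A or the only library, triangles replicate B and bars the mean of both; the members sit near 0 for SETD5-V5 at 0 h and at 55.4% and 42.7% at 6 h, between the de novo absent and the primed kept islands.

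Among the regions, 880 (39.5%) had SETD5-V5 at 6 h in both replicates, 424 (19.05%) in 1 replicate and 922 (41.4%) in neither. At 0 h, 2079 (93.4%) had it in neither. Primed kept islands had higher shares at 6 h, 75.3% and 60.03%, and de novo absent islands lower shares, 22.5% and 18.6%. The order of the 3 sets was thus the same in both libraries, with no test, since 2 libraries allow none that could pass. The order was also the same within each class of length and of score. Among the 557 de novo kept regions with the highest scores, 62.1% and 47.6% had SETD5-V5 at 6 h, against 9.09% and 6.82% of 88 de novo absent islands in that range of scores. The gap was smaller among the 557 with the lowest scores, at 51.7% and 39.5% against 28.1% and 20.8% of 384 de novo absent islands. SETD5-V5 was centred on the regions, as the profile around their centres shows. In replicate A, 51.5% of the centres lay inside a 6 h SETD5-V5 island, and 20.2% and 19.05% of the positions 10 kb to either side did.

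**Figure D2:**
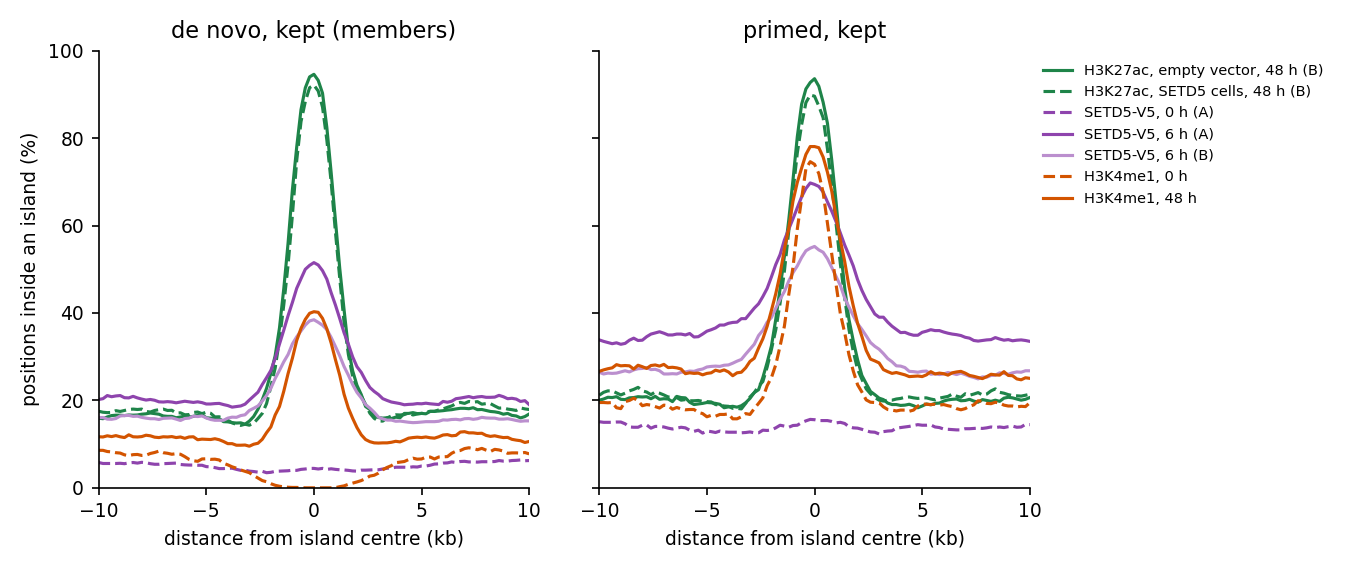
Share of positions (%) inside an island of each list, by distance (kb) from the island centre, for the de novo kept (left) and primed kept (right) islands. H3K4me1 at 0 h is 0% at de novo kept centres by the rule, while H3K4me1 at 48 h reaches 40.3% there and SETD5-V5 at 6 h 51.5% (A) and 38.5% (B).

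H3K4me1, which the rule did not use at 48 h, had joined H3K27ac by then at part of these regions. In the single 48 h library, 1165 of the 2226 regions (52.3%, Wilson 95% interval 50.3 to 54.4%) overlapped an H3K4me1 island, against a background of 70.5% of all distal islands. The rule had removed every region with 0 h H3K4me1, which the background keeps, so that a lower share was in part set by the choice. Of the primed kept islands, which carried the mark at 0 h by definition, 90.8% had it at 48 h, and of the de novo absent islands 38.8%. The share was higher at higher scores, from 38.2% of the 557 regions with the lowest scores to 67.7% of the 557 with the highest, and with length, from 38.4% under 2000 bp to 65.9% at 4000 bp and over. With an overlap of at least 50% of the region, it was 39.1% of the 1633 regions that met the rule at that overlap.

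Regions with SETD5-V5 at 6 h had H3K4me1 at 48 h at a higher share than regions without it. Of the 880 regions with SETD5-V5 in both replicates, 62.3% had H3K4me1 at 48 h. Among the 424 with SETD5-V5 in 1 replicate the share was 57.1%, and among the 922 with none 40.7%. Longer regions held both marks at higher shares, and the same order was seen in each length class. Under 2000 bp the shares were 53.1%, 43.7% and 28.4%, from 2000 to under 4000 bp 59.0%, 57.8% and 41.6%, and at 4000 bp and over 74.1%, 67.7% and 54.1%. Both marks were also at their highest shares among the regions with the highest scores. Their shares differed in the same order between groups of chromosomes, as given below. Whether the order holds within classes of score or within chromosomes was not tested. All of these are shares of regions in 3 libraries, and regions are not replicates of a condition.

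Few of the regions were acetylated before induction in SETD5 cells. The rule did not use these 0 h libraries, but it removed every region with 0 h H3K27ac in empty-vector cells, which the background keeps, so that a low share was largely set by the choice. An H3K27ac island was present at 0 h at 265 regions (11.9%) in the first replicate, A, and at 229 (10.3%) in B. The mean was 11.1% ± 1.14 (SD, n = 2), against a background of 62.4% and 60.9%. Both replicates held such an island at 149 regions (6.69%) and 1 replicate at 196 (8.81%). Primed kept islands had 26.2% and 25.2%, and de novo absent islands 1.12% and 1.62%.

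Endogenous SETD5 was rarely called at the regions. Its 0 h library overlapped 10 of them (0.449%, background 2.41%) and its 6 h library 36 (1.62%, Wilson 95% interval 1.17 to 2.23%, background 4.49%). These lists are short, with 2132 and 3293 islands. Of the 36 regions, 31 also had SETD5-V5 at 6 h in both replicates. Of all 896 distal islands with endogenous SETD5 at 6 h, 831 (92.7%) did. H3K4me1 at 48 h was present at 28 of the 36, against 52.3% of all de novo kept regions. The median length of the 36 was 4300 bp, against 2600 bp for all de novo kept regions. Of the 36, 5 lie within 50 kb of a listed gene and were picked for that after their values were seen. These are the region 47.1 kb downstream of Klf9, a Krüppel-like factor induced by glucocorticoids, the region 10.3 kb downstream of Mt1 and 16.9 kb downstream of Mt2, the metallothionein genes, and regions near Pde4d, Fkbp5 and Lcn2. Of these 5, only the Klf9 region also had SETD5-V5 at 0 h in both replicates.

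The central 600 bp of the regions held the C/EBP consensus and the GR element at higher shares than all distal islands and than the sequence outside the regions. A C/EBP consensus was present in 806 of 2226 (36.2%, Wilson 95% interval 34.2 to 38.2%), against a background of 30.8% of all distal islands and 25.1% of 4452 windows placed 5000 bp outside the regions. The GR element was present in 102 (4.58%, interval 3.79 to 5.53%), against a background of 1.94% and 0.719% of the outside windows. That is 2.36 times the share of all distal islands and 6.38 times that of the outside windows, and 1.17 and 1.44 times for C/EBP. Primed kept islands had the GR element in 2.86% and de novo absent islands in 1.83%. For C/EBP these shares were 29.8% and 34.3%. The intervals cover counting error over windows only.

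The base composition was close to that of the surroundings. The median GC content of the central windows was 42.5% in the regions, 42.5% in the outside windows, 44.7% in all distal islands and 46% in primed kept islands, and 19.99% of the outside windows met a 48 h H3K27ac island of their own. Both motifs were densest at the centre or in the bin next to it. C/EBP matches reached 0.806 per kb in the central 200 bp bin of the regions and averaged 0.460 per kb in bins from 2.5 to 3 kb away, and the GR element reached 0.0786 and averaged 0.0161. The ratio of centre to edge was 1.75 for C/EBP and 4.88 for the GR element, against 1.44 and 1.82 over all distal islands. The central GR value rests on 35 matches in the 2226 regions.

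**Figure D3:**
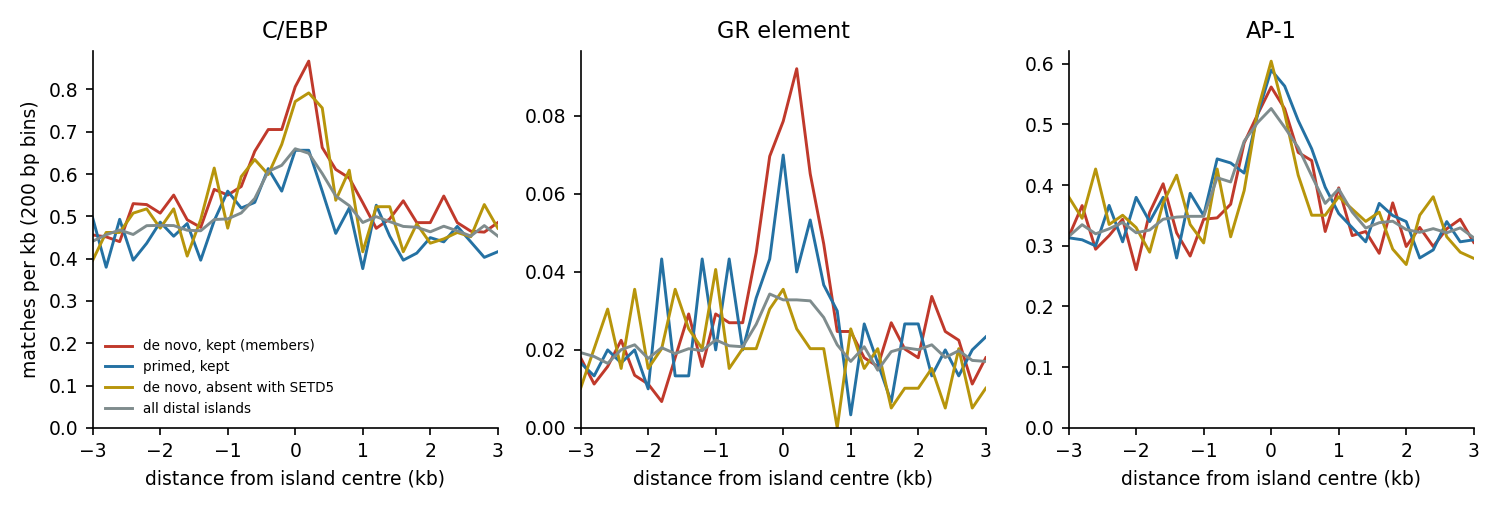
Matches per kb in 200 bp bins by distance (kb) from the island centre, for the C/EBP consensus, the GR element and AP-1, in de novo kept, primed kept, de novo absent and all distal islands. For C/EBP and the GR element the line of the 2226 de novo kept regions peaks above that of all distal islands, and for AP-1 the lines run close together.

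The other motifs lay on both sides of the background. AP-1 (TGANTCA), the site of Fos and Jun, was in 26.4% of the regions (background 25.5%), and the RUNX word TGTGGT in 38.3% (39.2%). TEAD sites (GGAATG) were in 26.7% (31%) and KLF sites (GGGCGG) in 7.01% (9.25%), both lower than the background. The STAT word TTCNNNGAA was in 20.4% (20%) and the NFI half-site TTGGCA in 35.6% (36.3%), while full NFI sites (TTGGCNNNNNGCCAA) were in 3 regions, 0.135% (0.0752%). The direct repeat bound by PPARγ and RXR (AGGNCANAGGNCA) was in 1.21% (1.27%), the EBF word TCCCNNGGGA in 1.57% (1.84%) and the cAMP response element TGACGTCA in 0.449% (0.466%). All words were searched on both strands, and a full NFI site can also count as a half-site. In regions with SETD5-V5 at 6 h in both replicates, AP-1 was in 30.6% and C/EBP in 39.7%, against 21.4% and 34.4% where neither replicate had it. The GR element was in 4.66% and 5.10%.

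Of the 2226 region centres, 1145 (51.4%) were intergenic and 1010 (45.4%) intronic, with 22 in coding exons, 32 in UTRs and 17 in noncoding exons. All distal islands had 51.6% intergenic and 45.8% intronic centres, and primed kept islands 38.3% and 58.7%. The median distance to the nearest protein-coding transcript start was 34.3 kb, against 33.9 kb over all distal islands and 25.6 kb for primed kept islands. Another region lay within 50 kb of 860 regions (38.6%). Chaining by that distance gave 11 groups of 5 or more. The largest held 9 regions over 131 kb near Nnt, the mitochondrial transhydrogenase, and the next 8 regions over 204 kb at Nfia, which encodes the nuclear factor NFI-A.

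The share of distal islands that met the rule varied by chromosome together with the 0 h H3K4me1 list. On 12 autosomes where 51.5 to 65.6% of distal islands overlapped 0 h H3K4me1, there were 10.97 to 16.3 de novo kept regions per 100 distal islands. On the other 7 autosomes (2, 5, 6, 8, 15, 17 and 19), where 70.8 to 85.7% did, there were 4.97 to 8.16. Chromosome X had 0 h H3K4me1 at 22.7% of its distal islands, and 78 de novo kept regions against 2 primed kept. The 0 h H3K4me1 list held 351 islands on chromosome X and 5697 on chromosome 6, where the 0 h H3K27ac list of empty-vector replicate A held 1111 and 1979. SETD5-V5 at 6 h was present at 66.3% and 57.5% of the regions on the 7 autosomes, 52.9% and 38.6% on the 12, and 26.9% and 17.9% on chromosome X, and H3K4me1 at 48 h at 69.2%, 48.4% and 8.97%. The 0 h H3K27ac of SETD5 cells ran the other way, at 7.21% and 8.61% on the 7 autosomes, 13.4% and 10.9% on the 12, and 16.7% and 10.3% on chromosome X. Absence from a list was therefore not equally frequent on all chromosomes, and the part of this in the choice of the regions was not tested. Without chromosome X the 2148 remaining regions had H3K4me1 at 48 h at 53.9% and SETD5-V5 at 6 h at a mean of 50.02%.

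**Figure D4:**
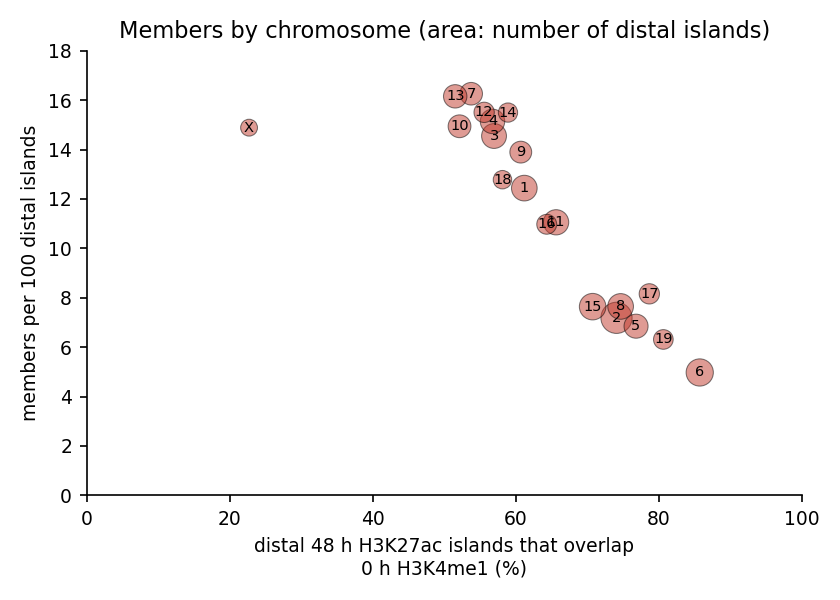
De novo kept regions per 100 distal islands (vertical axis) against the share of distal islands that overlap 0 h H3K4me1 (%), 1 circle per chromosome with its area set by the number of distal islands. Chromosomes 2, 5, 6, 8, 15, 17 and 19 lie at the lower right, with 4.97 to 8.16 per 100, and chromosome X lies alone at the left.

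Genes near the regions were counted for lists of adipocyte and MDI response genes. Within 50 kb of a transcript start, 1968 of 22238 protein-coding genes had a de novo kept region, a background of 8.85%, or 19.8% of the 9934 genes with any distal island that near. Glucocorticoid-induced genes had the highest count, with 16 of 28 (57.1%), or 69.6% of the 23 with any distal island that near. Mt1 and Mt2, both counted, share the same region. Primed kept islands were near 6 and de novo absent islands near 3 of the same 28, with backgrounds of 7.42% and 4.57% of all genes. In the adipocyte and adipogenic factor lists these sets came closer. Of the 35 adipocyte genes, 11 had a de novo kept, 11 a primed kept and 9 a de novo absent island nearby, and of the 26 adipogenic factors 10, 10 and 7. In the same order, insulin signalling genes had 8, 6 and 4, cAMP genes 5, 1 and 3, and inflammatory genes 6, 5 and 1. Preadipocyte and matrix genes had 1, 4 and 1. Counting de novo kept regions alone, adipogenic transcription factors had 10 of 26 (38.5%) and insulin signalling genes 8 of 20 (40%). Adipocyte genes had 11 of 35 (31.4%), inflammatory genes 6 of 20 (30%) and cAMP genes 5 of 20 (25%). Co-repressor genes and SETD5 partners had 2 of 14. Preadipocyte and matrix genes had 1 of 30 (3.33%), the actin-binding Tagln, and 22 of these 30 had some distal island within 50 kb. The rule left out every island with 0 h H3K27ac in empty-vector cells, so distal islands already acetylated then could not count. The part of this in the low count was not tested. Genes with many starts cover more sequence. Counted around any of its starts, Pde4d had 8 regions for 20 distinct starts and Pde4b 5 regions for 13 starts. In all, 77 regions lay near 52 of the 182 listed genes found in the annotation. The lists had been written with earlier results on these data known, and the targets of the regions were not measured.

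**Figure D5:**
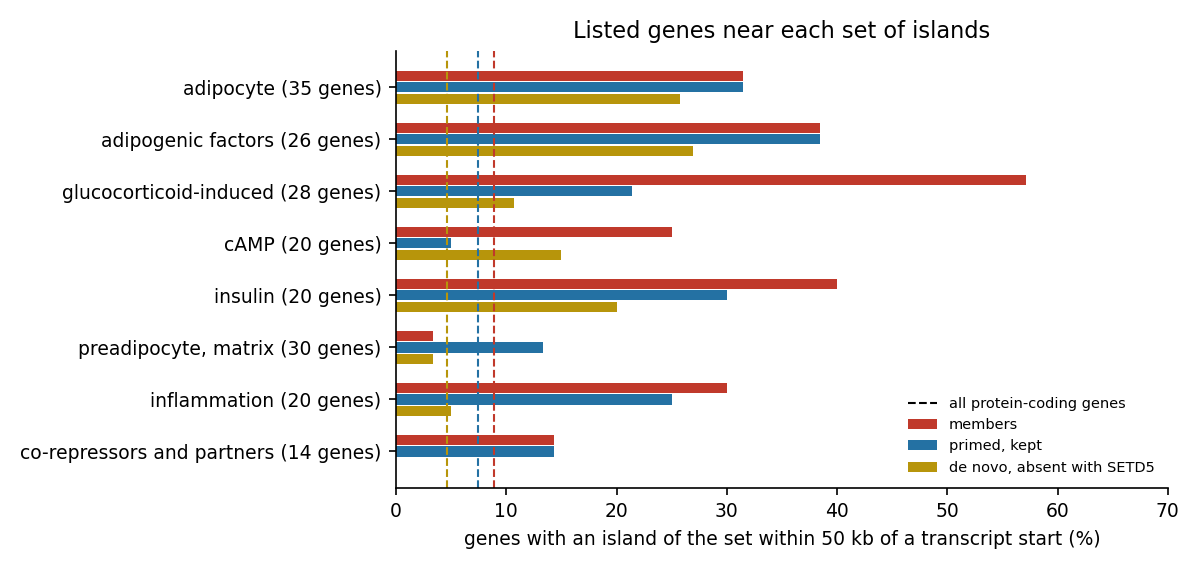
Share of the genes of each list (%) with an island within 50 kb of a transcript start, for de novo kept (members), primed kept and de novo absent islands; dashed lines give the share over all 22238 protein-coding genes. Glucocorticoid-induced genes have the longest member bar (16 of 28) and preadipocyte and matrix genes the shortest (1 of 30).

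Among glucocorticoid-induced genes, the region near Klf9 (chr19:23258201-23267400, intergenic) spanned 9200 and 8000 bp of H3K27ac at 48 h with the empty vector, against 3200 and 4000 bp with SETD5. Lengths below are given in the same order, replicates A and B with the empty vector against A and B with SETD5. Of the regions near listed genes named here, it was the only one with SETD5-V5 in all 4 libraries. Zbtb16 had an intronic region (chr9:48590201-48601000) of 10800 and 22200 bp against 7600 and 12600 bp, so the vectors overlapped, and an upstream region of 5800 bp at chr9:48663601-48669400. Neither had SETD5-V5 at 6 h, and both had H3K4me1 at 48 h. Tsc22d3, which encodes the glucocorticoid-induced leucine zipper, had 3 regions on chromosome X, the strongest at chrX:137098201-137103800 with 5600 and 4600 bp against 5400 and 12200 bp. Its groups overlapped, and it carried a 0 h H3K27ac island in replicate A of SETD5 cells. At Pdk4, a kinase that limits glucose oxidation, the region chr6:5420401-5424000 had 3600 bp and 5800 bp against 3200 bp and 2800 bp, with SETD5-V5 at 6 h in replicate A alone. The Mt1 and Mt2 region (chr8:96711001-96715800) had 4800 bp and 2400 bp against 2000 bp and 1200 bp, shorter in both SETD5 libraries.

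Among adipocyte genes, Lpl had 3 regions between -31.3 and -13.7 kb of its start. The strongest, chr8:71371201-71375000, had 3800 and 5000 bp against 3000 and 3400 bp, and SETD5-V5 at 6 h in both replicates. The region 13.7 kb upstream had 5800 bp in both empty-vector libraries against 2400 bp and 2200 bp. Fasn, the fatty acid synthase, had a region 39.7 kb downstream of its start with 5200 bp and 4800 bp against 4000 bp and 4400 bp. A region in an intron upstream of both Pex11a and Plin1, the lipid droplet coat protein, had 7400 bp and 5400 bp against 6200 bp and 5600 bp, so its groups overlapped. Lipe, hormone-sensitive lipase, had an intergenic region with 3600 bp and 7400 bp against 5600 bp and 5400 bp, and its groups overlapped as well.

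The late adipogenic factors each had 1 region. The region 37.9 kb downstream of Cebpa (chr7:35938801-35945600, intergenic), which holds the GR element shown above, had 6800 and 6200 bp against 2400 and 1400 bp. It had no SETD5-V5 at either time, and H3K4me1 at 48 h. The region of Pparg, the master regulator of adipocytes, lies at -18.0 kb (chr6:115289401-115297000) and was named after its values were seen. It had 7600 bp and 5000 bp against 4400 bp and 3800 bp, with SETD5-V5 at 6 h in both replicates and H3K4me1 at 48 h. Both regions were thus shorter in both SETD5 libraries, while they remained over the caller's threshold. Bcl6 had an intronic region at -6.84 kb with 4200 bp and 3800 bp against 1200 bp in both SETD5 libraries, without SETD5-V5.

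In the insulin and cAMP lists, the region near Pik3r1 (chr13:102579801-102584600) had 4800 bp and 4200 bp against 2800 bp and 2600 bp, without SETD5-V5 or H3K4me1. Hk2, hexokinase 2, had an intronic region with 3600 bp and 3800 bp against 1800 bp and 2200 bp, with SETD5-V5 at 6 h in both replicates. The Socs2 region had 4000 bp and 3600 bp against 4400 bp and 4600 bp, longer in both SETD5 libraries. For Pde4b 3 regions were among the strongest near listed genes. The one 33.3 kb downstream had 5000 bp and 3600 bp against 3000 bp and 2800 bp, and the ones at -30.7 and -24.3 kb both had SETD5-V5 at 6 h in both replicates. Among co-repressor genes and partners, the region near Cdc20, a coactivator of the anaphase-promoting complex, had 3400 bp and 3000 bp against 2800 bp and 1600 bp. Of the 77 regions near listed genes, 27 were shorter in both SETD5 libraries and 10 longer, against 34.5% and 14.4% of all de novo kept regions. H3K4me1 at 48 h was present at 57 of the 77 (74.0%), against 52.3% of all de novo kept regions. Except for that of Pparg, the regions near listed genes whose lengths are given were picked by score in replicate A of empty-vector cells. That choice favours long islands there, so their shortening is a description and no evidence of an effect.

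The labelled cell type was checked against promoters of marker genes in the 8 H3K27ac lists. All 10 fibroblast promoters carried H3K27ac in every library. Of 8 adipocyte markers, 3 had it in each 0 h library, 8 and 7 had it with the empty vector at 48 h, and 6 in both SETD5 libraries at that time, where Adipoq and Cd36 were without. None of 12 promoters of other cell types had it except Krt8, in both empty-vector libraries at 48 h. Lists held 31292 to 39949 islands for H3K27ac. They give no read counts, so the depth behind an island is not known from them. The study gives total reads per library, which were not used here, and absence means only that a region was under the caller's threshold.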

How the data were processed

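The members and lists were chosen with earlier results of these data known. Per the methods, reads were aligned to mm9 and the authors called islands library by library with SICER or SICER2 (200 bp window; permitted gap 400 bp for histones, 600 bp for SETD5; E-value 100). The deposited score is the caller's value for an island and served only to rank islands inside a list. Every start fell on the 200 bp grid. An overlap of 1 bp counted as shared. Shares were tested over libraries with the exact two-sided permutation test, and Wilson intervals cover counting error only. Read counts are not part of the lists, and depth behind an island is unknown; library read totals given by the study were not used here. Promoters, exons and transcript starts came from the GENCODE annotation of NCBIM37 (mm9), and motifs were exact matches on both strands. The 12 highest-scoring regions, up to 20 regions near listed genes and up to 8 sequences were named by rule. Alternatives were larger overlap, the central window, higher scores, equal list sizes, the other list, wider 0 h islands, wider promoters, each replicate left out and a replicate block. Python 3.11.15, numpy 2.4.6, pandas 2.3.3, scipy 1.17.1, pysam 0.24.0, bedtools 2.31.1 and samtools 1.23.1 were used. In tests on simulated data, 0 of 20000 overlap calls were wrong and 0 of 600 planted motifs were missed.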

Additional observations from a re-analysis of the deposited data

How the results depend on the processing

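Of 89 values recomputed under alternatives, 21 were counted as moved. For SETD5-V5 at 6 h, 0 h H3K27ac and the length ratio, this meant a change beyond the spread between replicates. For H3K4me1, endogenous SETD5 and the motif ratios, it meant a change beyond the Wilson interval, which covers counting error only. Counts had to change by over 1.5 times, and the SETD5-V5 difference was judged by its sign alone. The other 68 values did not move by these rules, and 0 changed direction. The SETD5-V5 difference is among the 68, although it fell from 45.0 to 12.1 percentage points with equal numbers of islands. Since its p is the smallest the design allows, p says nothing about its stability. With regions above the list's median score only, 694 regions remained, 66.1% had H3K4me1 at 48 h, the length ratio was 0.757, and 27 listed genes had a region nearby, since fewer regions were counted. With an overlap of at least 50%, the shares were 39.1% for H3K4me1 at 48 h, 8.63% for 0 h H3K27ac in SETD5 cells and 1.16% for endogenous SETD5. With the central 600 bp alone, they were 45.1% for H3K4me1 and 9.73% for 0 h H3K27ac. With equal numbers of islands per list of a mark, they were 14.5% for SETD5-V5 at 6 h, 6.01% for 0 h H3K27ac and 1.11% for endogenous SETD5, since longer lists lost their weaker islands. Against windows outside the regions, the motif ratios were 1.44 for C/EBP and 6.38 for the GR element. Within 20 kb of a start, 26 listed genes remained. Leaving out 1 replicate gave 2862 to 3585 regions (3585 without replicate A), 47.98 to 49.8% for H3K4me1, 12.6 to 14.7% for 0 h H3K27ac and a length ratio of 0.8 to 1 (1 without replicate A), with fewer lists for a region to meet. Over all alternatives the SETD5-V5 difference ran up to 51.6 percentage points, with the higher scores. With the replicate letter as a replicate block the SETD5-V5 difference was 45.0 percentage points as before, with p = 0.5 in the exact permutation within pairs, the smallest that 4 arrangements allow. The labels do not say that a letter marks a shared batch, and replicate A lay above its group mean at both times, by 2.00 percentage points at 0 h and 6.38 at 6 h. The alternative without chromosome X was chosen after seeing the data. Depth per island is not in the lists, and single libraries of H3K4me1 and endogenous SETD5 leave those shares without a replicate check.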
